A study of Mus musculus with 6 samples.

Results

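The 8 genes described here carry the dialogue between the oocyte and the somatic cells of its follicle: the secreted factors Gdf9, Bmp15, Bmp6 and Fgf8, the receptors Kit, Bmpr1b and Bmpr2, and the gap junction gene Gja4. They were picked by exact gene symbol, and all 8 were found among the 23235 rows of the table. Transcripts were measured in fully-grown oocytes at the germinal vesicle (GV) stage, collected from mice of the strain C57BL/6. The groups were Rtcb knock-out (Rtcb KO) oocytes and wild-type (WT) oocytes, with 3 libraries each and 10 oocytes per library. All donors had received PMSG, a gonadotropin that drives follicle growth, 44 to 48 hours earlier, and every sample title carries the tag 6W, which the labels do not explain. Rtcb encodes the RNA ligase that joins the pieces of spliced tRNAs and of the cleaved Xbp1 mRNA. The sources used here do not give the deleted part of Rtcb, the promoter that drove any Cre, or the number of mice. Nothing says that libraries came from separate animals, so the p-values measure spread among libraries that may be technical only.

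As background, a growing mouse oocyte and its granulosa cells depend on each other. The oocyte secretes GDF9, BMP15 and BMP6, members of the TGF-beta superfamily, and FGF8. These act on granulosa and cumulus cells, where they support proliferation, cumulus expansion and, for BMP15 with FGF8, glycolysis. Superfamily ligands bind a pair of type I and type II serine/threonine kinase receptors, which phosphorylate SMAD proteins. In the other direction granulosa cells present KIT ligand to the KIT receptor of the oocyte, and small molecules pass into the oocyte through gap junctions built from connexin 37, the product of Gja4.

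Values are FPKM (fragments per length of transcript and per number of mapped fragments), normalized by the authors to ERCC spike-in RNA. FPKM are per length, so levels of different genes can be compared. Rtcb itself, listed as D10Wsu52e, was at 3.82, 2.62 and 2.49 FPKM in Rtcb KO libraries and at 136, 133 and 113 FPKM in WT libraries. Within a genotype all 3 columns carry one common factor, with a KO to WT ratio of 0.667. This ratio enters every level and fold change given as deposited. Being common to a genotype, it adds no spread among libraries, so its uncertainty is not in the SE or p-values as deposited. The median log2 fold change of all 12029 genes tested was −0.47 as deposited and 0.043 with the genotype factors removed, and the summed FPKM in Rtcb KO was 0.741 and 1.11 times that in WT under these scalings. Read depth per library is unknown. All 10 oocyte markers had a mean of at least 1 FPKM. As deposited, their summed level was 14423 to 15405 FPKM in Rtcb KO and 21205 to 22511 FPKM in WT. The direction depends on the scaling: their median log2 fold change was −0.42 as deposited and 0.16 with the genotype factors removed. The 19 granulosa and cumulus cell markers summed, also as deposited, to 49.6 to 64.8 FPKM in Rtcb KO and to 61.7 to 68.8 FPKM in WT. Of these 19, 12 had a mean under 1 FPKM, among them Fshr, Foxl2 and Lhcgr, and Ptx3 was at 0 in every library. The other 7 had a mean of at least 1 FPKM. Their median log2 fold change was 0.11 as deposited and 0.44 with the genotype factors removed. The most abundant were Cyp19a1 (19.8 FPKM in Rtcb KO and 37.5 FPKM in WT), Nr5a2 (13.4 and 9.45 FPKM) and Inha (10.7 and 6.38 FPKM in the same order). The 7 theca and stroma markers summed to at most 2.08 FPKM in any library and the 5 blood and immune markers to at most 8.57 FPKM.

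In the order of the levels, Gdf9 stood first in both genotypes and Bmpr2 last. In Rtcb KO the order was Gdf9, Gja4, Bmp15, Fgf8, Bmpr1b, Kit, Bmp6 and Bmpr2, where the ranges of Gja4 and Bmp15 and those of Kit and Bmp6 overlapped. In WT it was Gdf9, Bmp15, Gja4, Fgf8, Kit, Bmpr1b, Bmp6 and Bmpr2, and no neighbours overlapped. Kit thus stood above Bmpr1b in all 3 WT libraries and below it in all 3 Rtcb KO libraries.

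The upstream sequences of 3 members are shown because their transcripts fell by nearly the same amount as deposited (log2 fold changes −0.87, −0.91 and −0.88 for Bmp15, Bmp6 and Bmpr1b). They are the 250 bases before the annotated start of Bmp15, Bmp6 and Bmpr1b, from RefSeq on build GRCm38.p6, which differs from the build mm9 of the values. Of the 8 members, 6 had an entry: Bmp15, Bmp6, Bmpr1b, Bmpr2, Kit and Gja4. Bmpr1b has 3 entries, of which the first is shown. The Bmp15 window is chrX:6320725-6320974 on the minus strand, the Bmp6 window chr13:38345466-38345715 on the plus strand, and the Bmpr1b window chr3:141982265-141982514 on the minus strand. Capitals mark 2 kinds of motif on either strand: the E-box CANNTG, bound by basic helix-loop-helix factors such as FIGLA with its partners, and TAATTG or TAATTA, bound by the oocyte homeodomain factor NOBOX.
Bmp15: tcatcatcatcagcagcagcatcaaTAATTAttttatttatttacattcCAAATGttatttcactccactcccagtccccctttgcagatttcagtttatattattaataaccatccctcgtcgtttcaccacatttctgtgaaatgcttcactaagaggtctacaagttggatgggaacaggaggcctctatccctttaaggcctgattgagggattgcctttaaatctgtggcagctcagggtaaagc
Bmp6: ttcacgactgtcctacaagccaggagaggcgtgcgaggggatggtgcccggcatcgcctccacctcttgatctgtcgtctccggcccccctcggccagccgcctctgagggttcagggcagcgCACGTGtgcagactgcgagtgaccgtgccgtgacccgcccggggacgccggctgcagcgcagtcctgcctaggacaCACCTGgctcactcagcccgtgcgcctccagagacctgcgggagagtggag
Bmpr1b: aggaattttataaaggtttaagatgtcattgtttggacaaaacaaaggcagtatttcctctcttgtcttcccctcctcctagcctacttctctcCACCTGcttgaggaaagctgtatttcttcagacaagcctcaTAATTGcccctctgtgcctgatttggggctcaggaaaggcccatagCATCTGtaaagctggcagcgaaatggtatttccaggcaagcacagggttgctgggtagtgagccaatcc
The Bmp15 window held 1 E-box and 1 TAATTA, the Bmp6 window 2 E-boxes, and the Bmpr1b window shown 2 E-boxes and 1 TAATTG. No site overlapped another. Of the Bmpr1b entries not shown, given here by their full coordinates, only the 250 bases before the start were searched. Those of chr3:141931371-141931670 held 1 E-box and no TAATTG or TAATTA, and those of chr3:141931539-141931838 held none of these motifs. The first windows of Kit, Gja4 and Bmpr2 held none of these 3 motifs. A search for 2 general promoter motifs found the GC box GGGCGG in the first windows of Kit, Gja4, Bmpr2 and Bmp6. The letters TATAAA of the TATA box, on either strand, were in those of Bmp15 and Bmpr1b. Counted from the annotated start, the nearest TATAAA lay at −155 in Bmp15 and at −242 in Bmpr1b. The other Bmpr1b windows held neither motif. Among 32851 promoter windows of the same length, 66.2% held CANNTG, 7.17% TAATTG, 4.84% TAATTA, 32.7% GGGCGG and 12.4% TATAAA. The windows of Bmp15 and Bmpr1b were 40.4% and 46.8% G and C, those of Bmp6 and Kit 68.8% and 70.8%, against a median of 52.4% over all windows. These matches describe letters and say nothing of binding.

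The genotypes were compared to ask which transcripts of this dialogue differ when Rtcb is lost. As deposited, 6 of the 8 members were lower in Rtcb KO by limma at an adjusted p under 0.05, and 0 were higher, also at an unadjusted p under 0.05. The background is large: 54.0% of all genes tested were called lower and 9.29% higher. The median log2 fold change of the members was −0.88, against −0.47 for all genes. With the genotype factors removed, 3 members were higher and 2 lower, where 25.7% of all genes were called higher and 18.0% lower, and the median was −0.30 against 0.043. After rescaling the libraries to equal totals, 2 were higher and 3 lower, where 19.0% of all genes were called higher and 25.8% lower. With median-ratio rescaling 3 were higher and 3 lower, where the shares of all genes were 22.8% and 21.7%. As deposited, all 3 Rtcb KO libraries lay below all 3 WT libraries for 7 of the 8 members, which held for 57.5% of all genes tested. The 2 members that were lower under all 4 scalings run were Kit and Bmpr1b. Since each library pools oocytes, less RNA in every oocyte and fewer oocytes that hold the transcript cannot be told apart.

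**Figure D1:**
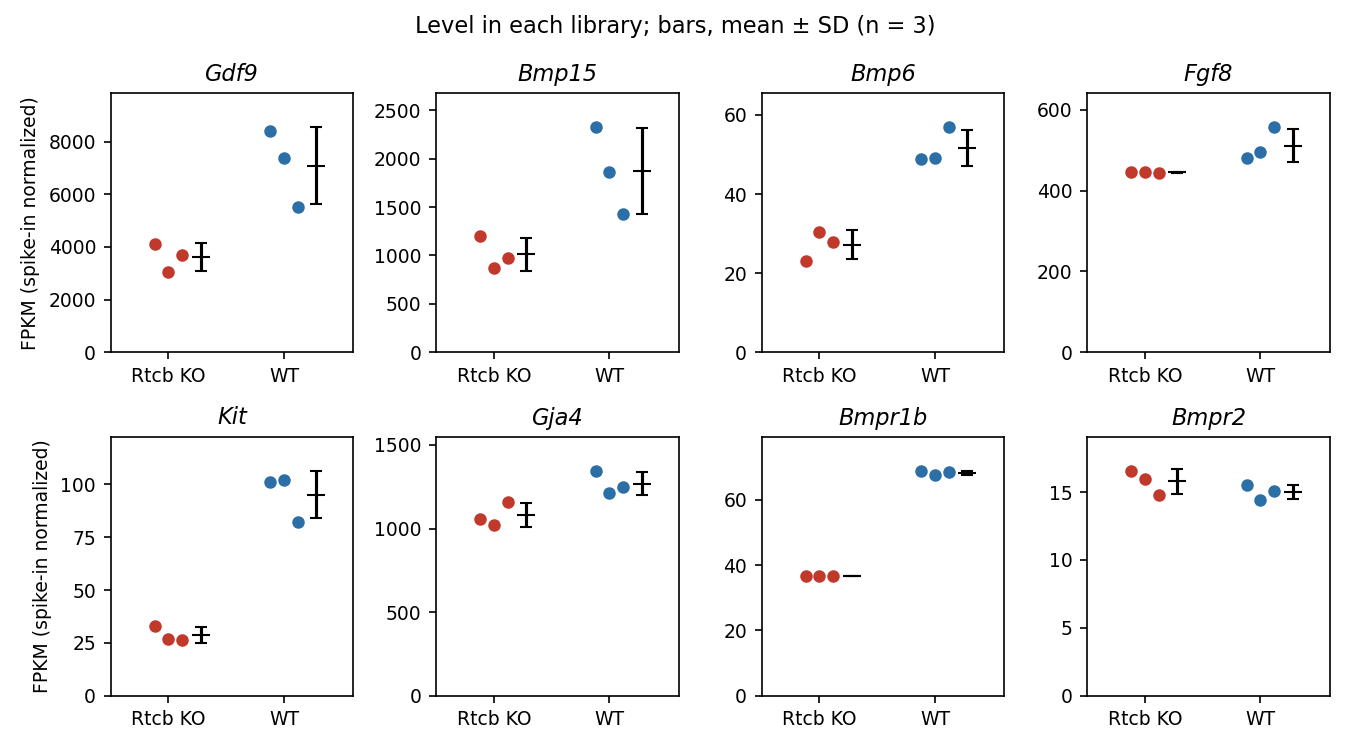
FPKM of each member in each library, with one panel per gene, Rtcb KO left of WT and bars for the mean ± SD (n = 3). Kit ran from 26.2 to 33.0 FPKM in Rtcb KO and from 82.3 to 102 FPKM in WT, while the 2 groups of Bmpr2 overlapped.

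Gdf9, the ligand needed for follicles to grow past the primary stage in mice, was the most abundant member. It stood at 4115, 3055 and 3685 FPKM in the Rtcb KO libraries and at 8387, 7365 and 5515 FPKM in the WT libraries. The highest Rtcb KO library lay below the lowest WT library. The mean was 3618 ± 533 FPKM in Rtcb KO and 7089 ± 1456 FPKM in WT (SD, n = 3 each), 1.96-fold lower in Rtcb KO. The fall was called as deposited (log2 fold change −0.96, SE 0.17, limma adjusted p = 0.00195) but not with equal totals (−0.53, adjusted p = 0.0531), with median-ratio rescaling (−0.44, 0.0649) or with the genotype factors removed (−0.37, 0.12). Within a library Gdf9 ranked 13th, 27th and 17th of 12029 genes in Rtcb KO and 6th, 8th and 15th in WT.

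Bmp15, the X-linked relative of Gdf9 whose product can pair with GDF9, showed the same picture. Its level was 1196, 868 and 969 FPKM in Rtcb KO and 2326, 1868 and 1429 FPKM in WT. Every Rtcb KO library lay below every WT library as deposited. The mean was 1011 ± 168 FPKM in Rtcb KO and 1874 ± 448 FPKM in WT, with a log2 fold change of −0.87 (SE 0.19, limma adjusted p = 0.00441). The call was lost with equal totals (−0.44, adjusted p = 0.116), with median-ratio rescaling (−0.36, 0.147) and with the factors removed (−0.29, 0.243). Gdf9 and Bmp15 also had the same highest and lowest library within each genotype: Rtcb KO 1 was highest and Rtcb KO 2 lowest, and WT 1 was highest and WT 3 lowest. A ratio within a library does not depend on the scaling. Gdf9 over Bmp15 was 3.44, 3.52 and 3.80 in Rtcb KO and 3.61, 3.94 and 3.86 in WT, so the groups overlapped (exact permutation test, two-sided, p = 0.2, adjusted over 4 ratios 0.267). The ratio stayed between 3.44 and 3.94 while Gdf9 ran from 3055 to 8387 FPKM.

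Bmp6, another oocyte ligand of the superfamily, was far less abundant. It had 23.1, 30.4 and 27.9 FPKM in Rtcb KO and 48.9, 49.0 and 56.9 FPKM in WT. The groups lay apart, and Rtcb KO 1, the highest Rtcb KO library for Gdf9 and Bmp15, was the lowest for Bmp6. The mean was 27.1 ± 3.69 FPKM in Rtcb KO and 51.6 ± 4.59 FPKM in WT (log2 fold change −0.91, SE 0.13, limma adjusted p = 0.000626). The call held with equal totals (−0.49, adjusted p = 0.0132) and was lost with the factors removed (−0.33, 0.0672). Exons of Bmp6 overlap those of Txndc5 on the other strand in the annotation GENCODE vM21. Smart-seq2 does not mark strand, so reads in the overlap cannot be told apart, and Txndc5 was at 187 FPKM in Rtcb KO and 303 FPKM in WT. The ratio of Bmp15 over Bmp6 varied widely, at 51.7, 28.5 and 34.7 in Rtcb KO and 47.6, 38.1 and 25.1 in WT (exact permutation test, two-sided, p = 0.9, adjusted 0.9).

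Fgf8, the fibroblast growth factor that acts with BMP15 on cumulus cells, was nearly level within Rtcb KO. It had 445, 447 and 443 FPKM in Rtcb KO and 481, 496 and 557 FPKM in WT. The groups did not overlap, yet the difference was small beside the other ligands. The log2 fold change was −0.20 (SE 0.086) and was not called (limma adjusted p = 0.0757), except without WT 1 (−0.24, 0.0489). It turned positive with equal totals (0.23, adjusted p = 0.0373), with median-ratio rescaling (0.32, 0.0225) and with the factors removed (0.39, 0.00896), where it was called. Within a library Fgf8 stood at a percentile of 96.3 to 96.5 among the genes tested in Rtcb KO and of 95.8 to 96.2 in WT.

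**Figure D2:**
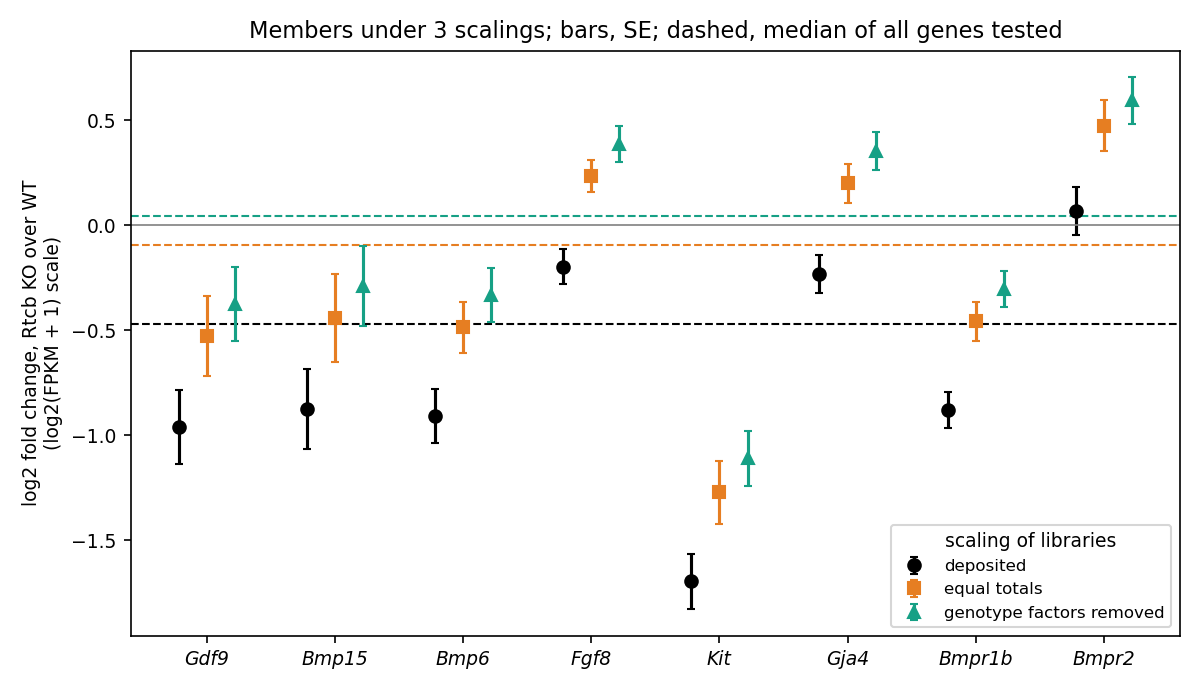
Log2 fold change (Rtcb KO over WT, log2(FPKM + 1) scale) of each member under 3 scalings, with bars for the SE and dashed lines for the median of all genes under the same scaling. Kit lies furthest below the dashed lines (−1.69 as deposited), while Fgf8, Gja4 and Bmpr2 lie above them under all 3 scalings drawn.

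Kit, the receptor tyrosine kinase through which granulosa-derived KIT ligand reaches the oocyte, had the largest difference among the members. Its level was 33.0, 27.0 and 26.2 FPKM in Rtcb KO and 101, 102 and 82.3 FPKM in WT. Every Rtcb KO library lay below every WT library. The log2 fold change was −1.69 (SE 0.13, limma adjusted p = 0.000162), which is −1.22 relative to the median of all genes, and 1.04% of all genes tested had a lower fold change. Kit was also lower under the other scalings, with log2 fold changes of −1.27 with equal totals (adjusted p = 0.0015) and −1.11 with the factors removed (0.00112). Its rank among 12029 genes was 3847, 4221 and 4406 in Rtcb KO and 2343, 2301 and 2660 in WT. In percentiles this was a mean of 65.4 in Rtcb KO and 79.8 in WT. Kitl, the gene of KIT ligand made by granulosa cells, averaged 2.58 FPKM in Rtcb KO and 2.29 FPKM in WT. Kitl was not called as deposited (log2 fold change 0.11, limma adjusted p = 0.567) and was higher with the factors removed (0.44, 0.0348).

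Gja4, whose connexin couples the oocyte to its cumulus cells, stayed abundant. It had 1056, 1022 and 1159.6 FPKM in Rtcb KO and 1346, 1211 and 1247 FPKM in WT. The groups did not overlap, with means of 1079 ± 71.7 FPKM in Rtcb KO and 1268 ± 70.0 FPKM in WT. Its log2 fold change of −0.23 (SE 0.089) sat at the threshold (limma adjusted p = 0.0499). The call was lost without any 1 of the 6 libraries: without Rtcb KO 1 (adjusted p = 0.146), Rtcb KO 2 (0.126), Rtcb KO 3 (0.0533), WT 1 (0.111), WT 2 (0.0825) or WT 3 (0.0709). The direction turned with equal totals (0.20, 0.114), with median-ratio rescaling (0.28, 0.0363) and with the factors removed (0.35, 0.016). Kit over Gja4 within a library was 0.0312, 0.0265 and 0.0226 in Rtcb KO and 0.0752, 0.0845 and 0.066 in WT. That ratio was 2.82-fold lower in Rtcb KO without overlap (exact permutation test, two-sided, p = 0.1, the smallest that 3 against 3 can give; adjusted 0.2).

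The pair of BMP receptors differed. Bmpr1b, a type I receptor for BMP15 and BMP6, had 36.6, 36.7 and 36.7 FPKM in Rtcb KO and 68.9, 67.7 and 68.5 FPKM in WT. Its spread within a genotype was the smallest of the 8 members in both, with an SD of 0.204% of the mean in Rtcb KO and 0.918% in WT. The log2 fold change was −0.88 (SE 0.085, limma adjusted p = 0.000178), and the call held with equal totals (−0.46, adjusted p = 0.00633) and with the factors removed (−0.30, 0.0211). Bmpr2, the type II receptor for GDF9 and BMP15, had 16.6, 15.98 and 14.8 FPKM in Rtcb KO and 15.5, 14.4 and 15.1 FPKM in WT, and the groups overlapped. It was not called as deposited (log2 fold change 0.068, SE 0.11, limma adjusted p = 0.616). It was higher with equal totals (0.47, adjusted p = 0.0163), with median-ratio rescaling (0.55, 0.00715) and with the factors removed (0.59, 0.00462). Bmpr1b over Bmpr2 within a library was 2.21, 2.30 and 2.48 in Rtcb KO and 4.44, 4.69 and 4.55 in WT. It was 1.96-fold lower in Rtcb KO with no overlap (exact permutation test, two-sided, p = 0.1, adjusted 0.2).

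**Figure D3:**
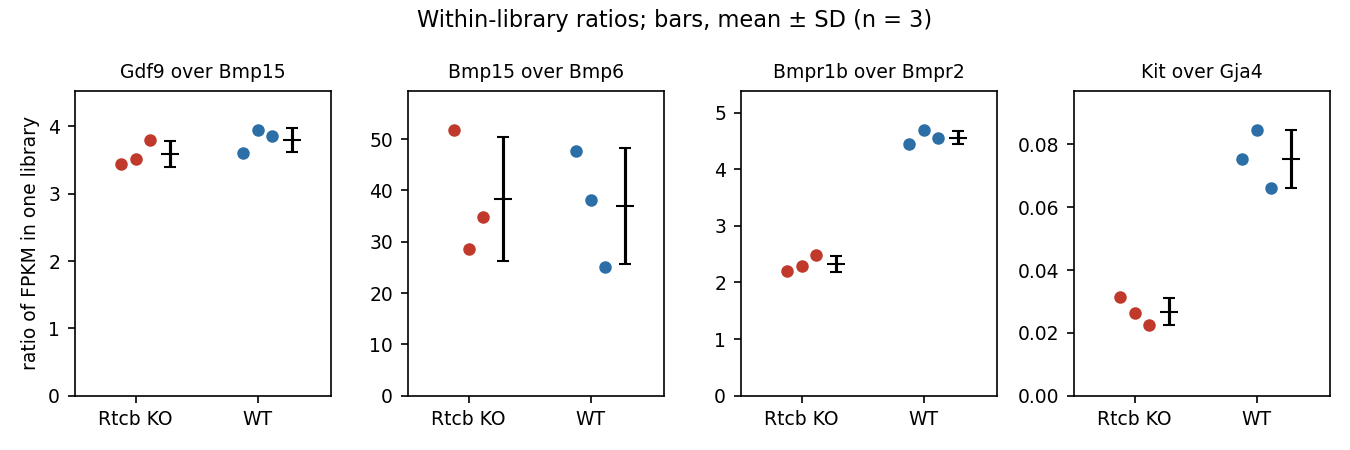
Ratios of FPKM between pairs of members within one library, Rtcb KO left of WT, with bars for the mean ± SD (n = 3). Bmpr1b over Bmpr2 and Kit over Gja4 lie lower in all 3 Rtcb KO libraries, while Gdf9 over Bmp15 and Bmp15 over Bmp6 overlap.

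The genes whose centred profile over the 6 libraries was closest to each member were sought among 6542 genes that averaged 10 FPKM or more, leaving out symbols of the Gm, Rik, Mir, Snor and LOC kinds, by the root-mean-square difference in log2(FPKM + 1). Closest to Gdf9 was Ddost, at 37.4 ± 5.52 FPKM in Rtcb KO and 77.0 ± 16.5 FPKM in WT (difference 0.041), and then Dgat2 (0.0449). Closest to Bmp15 were Rnf14 (0.0345) and Sufu (0.063), and to Bmp6 Drosha (0.0296) and Ddx46 (0.0449). Fgf8 was nearest to Cisd1 (0.0214) and Rfc3 (0.0297), and Gja4 to Hmga2-ps1 (0.0314) and Mpv17l2 (0.0427). Kit was nearest to Cdkal1 (0.057), which was at 7.59 ± 0.919 FPKM in Rtcb KO and 26.4 ± 4.41 FPKM in WT, and to Cdo1 (0.0956). Bmpr1b was nearest to Setd6 (0.0258) and Thumpd1 (0.027), and Bmpr2 to Car9 (0.0504) and Bbs5 (0.0522). The 6 libraries fall into 2 genotypes, so a gene with a like difference between them scores as alike.

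The pathways around the members were described from fixed lists. Each count below is to be read beside the share of all genes tested. As deposited, 9.29% of these were called higher and 54.0% lower, and with the factors removed 25.7% were higher and 18.0% lower. Of 30 other superfamily ligands, 7 were tested, and as deposited 1 was higher and 2 were lower; with the factors removed 2 were higher and 0 lower. Tgfb2 had 137 ± 15.4 FPKM in Rtcb KO and 241 ± 7.65 FPKM in WT, and Tgfb3 28.2 ± 3.05 FPKM in Rtcb KO and 47.1 ± 4.47 FPKM in WT. Both calls were lost with the factors removed (adjusted p = 0.0912 and 0.343). Inhbc, an inhibin beta subunit, was higher at 2.99 ± 0.557 FPKM in Rtcb KO and 1.24 ± 0.368 FPKM in WT, also with the factors removed (0.00236), where Bmp5 joined it (log2 fold change 0.59, adjusted p = 0.0152; 0.022 and 0.909 as deposited).

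Of 13 other receptors of the superfamily, 8 were tested, 2 were higher and 1 was lower; with the factors removed 4 were higher and 0 lower. Acvr2a, an activin type II receptor, rose to 4.94 ± 1.49 FPKM in Rtcb KO, against 2.63 ± 0.27 FPKM in WT. Its call was lost without Rtcb KO 1, Rtcb KO 3 or WT 3 (adjusted p up to 0.0744). Bambi, a pseudoreceptor that dampens signalling, rose to 2.13 ± 0.391 FPKM, against 0.977 ± 0.328 FPKM in WT, a call lost without Rtcb KO 3 (0.0511). Acvr1 fell to 3.57 ± 0.574 FPKM, against 6.13 ± 1.04 FPKM in WT, but not with the factors removed (0.482). Unlike the member Bmpr1b, Bmpr1a was not called as deposited (log2 fold change 0.27, limma adjusted p = 0.188). It was higher with the factors removed (0.79, 0.00682).

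Of 16 Smads and their regulators, 11 were tested, 1 was higher and 4 were lower; with the factors removed 4 were higher and 0 lower. Among the receptor-activated Smads, as deposited, Smad5 was higher (6.39 ± 0.892 FPKM in Rtcb KO and 2.99 ± 0.516 FPKM in WT), also with the factors removed (adjusted p = 0.00126). Smad1 (8.12 ± 0.826 FPKM in Rtcb KO and 13.7 ± 2.34 FPKM in WT) and Smad3 (32.0 ± 3.21 and 48.9 ± 7.39 FPKM in the same order) were lower as deposited. Smurf1, a ubiquitin ligase that targets Smads, was also lower (5.65 ± 0.969 FPKM in Rtcb KO and 13.1 ± 4.65 FPKM in WT). Removing the factors ended these 3 calls (adjusted p = 0.475, 0.922 and 0.103), and Ski, a co-repressor of Smads that was lower as deposited (85.3 ± 11.6 FPKM in Rtcb KO and 117 ± 9.23 FPKM in WT), turned positive there (log2 fold change 0.12). Smad2, also receptor-activated, was not called as deposited (log2 fold change −0.099, adjusted p = 0.451) and was higher with the factors removed (0.45, 0.0126). Smurf2 likewise was not called as deposited (0.30, 0.0742) and was higher with the factors removed (0.86, 0.00214). Of 4 Id genes, transcriptional targets of BMP signalling, the 3 tested (Id1, Id2 and Id3) were higher under each scaling. Id1 had 9.72 ± 4.34 FPKM in Rtcb KO and 2.84 ± 0.869 FPKM in WT (log2 fold change 1.42, limma adjusted p = 0.00526), Id2 69.8 ± 10.8 FPKM in Rtcb KO and 9.44 ± 0.736 FPKM in WT (2.75, 0.000162). Id3 had 158 ± 64.1 FPKM in Rtcb KO and 10.5 ± 3.35 FPKM in WT (3.76, 0.000162).

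Among 16 genes that process or antagonise the ligands, 7 were tested, 1 was higher and 4 were lower. Furin, a convertase that cleaves superfamily precursors, fell to 25.2 ± 1.99 FPKM in Rtcb KO, against 45.0 ± 4.83 FPKM in WT, and Pcsk7, another convertase, to 1.998 ± 0.219 FPKM, against 4.79 ± 0.647 FPKM. Fstl1, a secreted follistatin-like protein, fell to 0.993 ± 0.171 FPKM, against 4.42 ± 0.371 FPKM in WT, and Tll1, a tolloid-like protease, to 3.65 ± 0.118 FPKM, against 7.48 ± 1.24 FPKM. Twsg1, a secreted BMP modulator, rose to 13.8 ± 3.17 FPKM in Rtcb KO, against 4.58 ± 0.48 FPKM in WT. With the factors removed Twsg1 was still higher (adjusted p = 0.000806) and Pcsk7 (0.031) and Fstl1 (0.00191) were lower, while Furin (0.13) and Tll1 (0.084) were not called.

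On the FGF side, 9 of 15 receptors and feedback genes were tested, with 2 higher and 3 lower as deposited and 4 higher and 2 lower with the factors removed. The 2 that became higher there were Spry1 (log2 fold change 0.57, adjusted p = 0.0054) and Frs2 (0.52, 0.0197), against −0.0017 and 0.23 as deposited. Fgfr2 had 9.08 ± 0.299 FPKM in Rtcb KO and 19.4 ± 2.196 FPKM in WT, and Spry4, a feedback inhibitor, 160.2 ± 5.39 FPKM in Rtcb KO and 299.6 ± 35.2 FPKM in WT. Both were lower with the factors removed as well (adjusted p = 0.0207 and 0.0388). Etv5, a transcription factor induced by FGF signalling, was higher (7.27 ± 2.29 FPKM in Rtcb KO and 2.80 ± 0.198 FPKM in WT), and so was Dusp6 (2.34 ± 1.148 and 0.634 ± 0.245 FPKM in the same order). The Dusp6 call was lost without Rtcb KO 1, Rtcb KO 3 or WT 2 (adjusted p up to 0.0697). Fgfr1 was lower as deposited (6.80 ± 0.801 FPKM in Rtcb KO and 9.43 ± 0.348 FPKM in WT), a call lost without Rtcb KO 2, Rtcb KO 3, WT 1 or WT 2 (up to 0.073), and turned positive with the factors removed (log2 fold change 0.09). Of 21 other FGF ligands 5 were tested, and as deposited 0 were higher, also at an unadjusted p under 0.05, and 2 were lower. Under each of the other 3 scalings 1 was higher, which with the factors removed was Fgf10 (log2 fold change 0.63, adjusted p = 0.0112), and 1 was lower. The 2 lower as deposited were Fgf7 (1.56 ± 0.222 FPKM in Rtcb KO and 6.15 ± 0.818 FPKM in WT) and Fgf9 (4.76 ± 0.669 FPKM in Rtcb KO and 7.73 ± 1.13 FPKM in WT); without the factors Fgf9 missed the threshold (adjusted p = 0.65).

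Downstream of KIT, 28 of 30 genes of the PI3K and FOXO3 branch were tested, and 2 were higher and 14 lower. Of all genes 9.29% were higher and 54.0% lower. The median of the branch was −0.36 against −0.47 for all genes. With the factors removed 7 were higher and 3 lower, where the shares of all genes were 25.7% and 18.0%. The adaptor Grb2 was higher (26.6 ± 4.88 FPKM in Rtcb KO and 13.3 ± 1.10 FPKM in WT), as was the exchange factor Sos1 (2.09 ± 0.652 and 0.646 ± 0.111 FPKM in the same order), both also with the factors removed (adjusted p = 0.000875 and 0.00372). The phosphatase gene Ptpn11 was lower (24.0 ± 2.17 FPKM in Rtcb KO and 49.0 ± 1.58 FPKM in WT), as was the kinase gene Mtor (2.52 ± 0.228 and 7.08 ± 0.739 FPKM in the same order), again also with the factors removed (0.0129 and 0.00612). Pik3r1, the regulatory subunit of PI3K, was lower as deposited (18.1 ± 1.02 FPKM in Rtcb KO and 31.8 ± 2.27 FPKM in WT) and not called with the factors removed (0.151).

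Of 22 other connexins and pannexins 9 were tested, and as deposited 0 were higher, also at an unadjusted p under 0.05, and 4 were lower. The direction of the calls turned with the factors removed, where Gjc1 (log2 fold change 0.44, adjusted p = 0.0285) and Panx2 (0.61, 0.00746) were higher and 0 were lower. All 4 lower as deposited stood far below Gja4: Gja3 had 2.01 ± 0.355 FPKM in Rtcb KO and 3.27 ± 0.439 FPKM in WT, and Gja10 1.42 ± 0.111 FPKM in Rtcb KO and 2.84 ± 0.323 FPKM in WT. Gjb1 had 18.6 ± 3.21 FPKM in Rtcb KO and 29.7 ± 3.09 FPKM in WT, and Panx1 29.8 ± 3.75 FPKM in Rtcb KO and 45.5 ± 4.22 FPKM in WT. With the factors removed none of these 4 was called (adjusted p from 0.165 to 0.874), and the Gja3 call was also lost without Rtcb KO 1, Rtcb KO 2, WT 1 or WT 2 (up to 0.0864). Gja1, the connexin 43 gene of granulosa cells, was at 2.17 ± 1.14 FPKM in Rtcb KO and 1.52 ± 0.567 FPKM in WT.

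Genes of adhesion and contact sites had a median of −0.89, against −0.47 for all genes. Of 22 listed 20 were tested. As deposited 0 were higher, also at an unadjusted p under 0.05, and 13 were lower, where the shares of all genes were 9.29% and 54.0%. With the factors removed 3 were higher and 6 lower, where the shares were 25.7% and 18.0%. Myo10, a myosin of filopodia, fell to 13.4 ± 0.752 FPKM in Rtcb KO, against 43.0 ± 3.41 FPKM in WT. Ctnna1, which links cadherins to actin, fell to 38.0 ± 0.597 FPKM, against 83.4 ± 3.98 FPKM in WT. Rdx, which links the membrane to actin, fell to 1072 ± 129 FPKM, against 2411 ± 170 FPKM in WT. These 3 were lower with the factors removed too (adjusted p from 0.000966 to 0.00507). Jag1, a Notch ligand of oocytes named after its values were seen, was at 210 ± 16.9 FPKM in Rtcb KO and 397 ± 32.4 FPKM in WT (limma adjusted p = 0.000237).

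**Figure D4:**
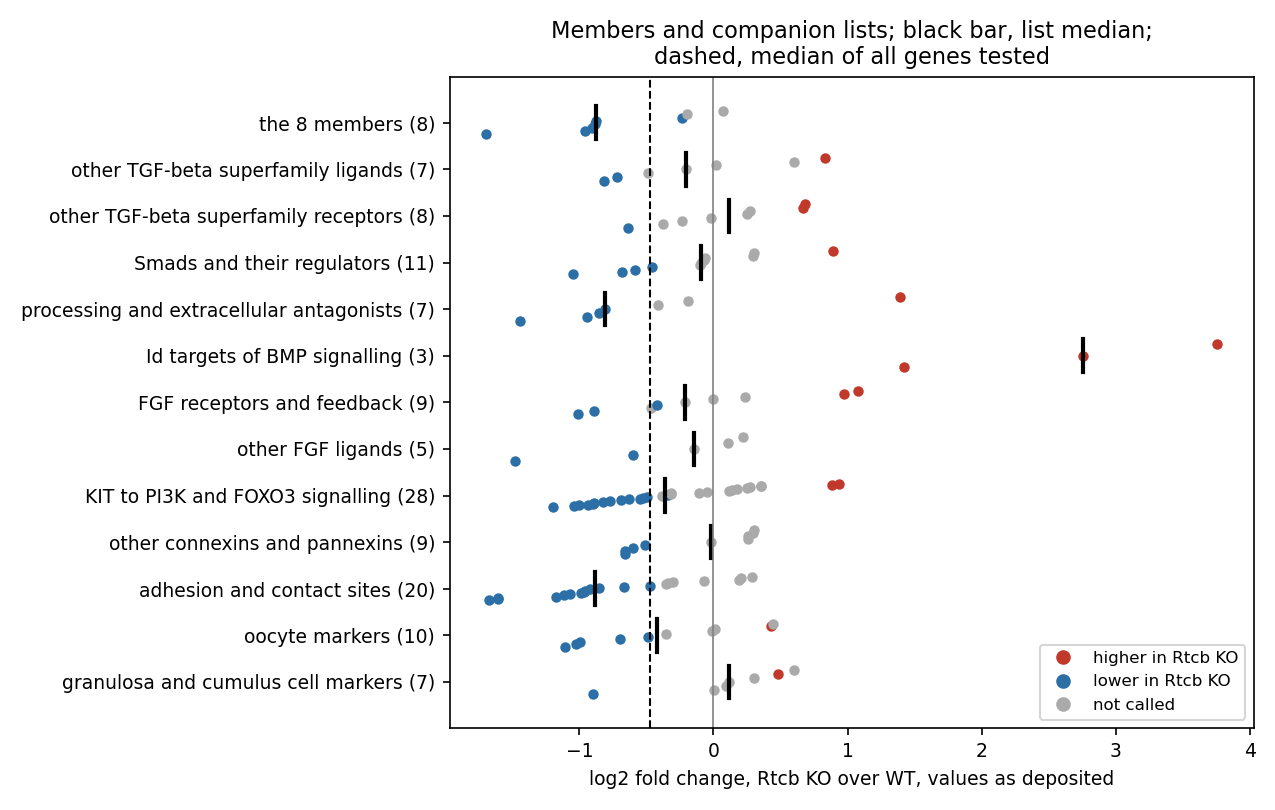
Log2 fold change (Rtcb KO over WT, as deposited) of each tested gene in the members and the companion lists, coloured by the limma call, with black bars for list medians and a dashed line for the median of all genes. The members have a median of −0.88 and the Id genes lie furthest to the right, while granulosa and cumulus cell markers scatter around a median of 0.11.

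Among granulosa and cumulus cell markers, 7 were tested, and 1 was higher and 1 lower as deposited. With the factors removed 2 were higher, Nr5a2 (limma adjusted p = 0.00263) and Kitl (0.0348), and 0 were lower. Cyp19a1 had 19.8 ± 2.34 FPKM in Rtcb KO and 37.5 ± 2.17 FPKM in WT, a call lost with the factors removed (adjusted p = 0.0565). Nr5a2 had 13.4 ± 1.08 FPKM in Rtcb KO and 9.45 ± 1.88 FPKM in WT, a call lost without Rtcb KO 1, Rtcb KO 3, WT 1 or WT 2 (adjusted p up to 0.0999). Fshr stayed at or below 0.806 FPKM and Foxl2 at or below 0.0763 FPKM in every library. Of the 10 oocyte markers 1 was higher and 5 were lower, and with the factors removed 4 were higher and 2 lower. Figla, the E-box factor named above, was higher as deposited (171 ± 5.42 FPKM in Rtcb KO and 127 ± 13.5 FPKM in WT, limma adjusted p = 0.00626). The 5 lower ones were Zp1, Zp2 and Zp3 of the zona pellucida and the maternal factors Zar1 and Npm2. Of these, Zp1 (adjusted p = 0.0126) and Zar1 (0.0334) were lower with the factors removed too. The 4 higher under that scaling were Figla (log2 fold change 1.01, adjusted p = 0.000838), Ddx4 (0.99, 0.0137), Dazl (0.59, 0.00266) and Oosp1 (0.57, 0.0462). The part of these markers in the results on the members was not tested.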

How the data were processed

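Polyadenylated RNA of 10 oocytes per library was made into cDNA by Smart-seq2 with ERCC spike-ins and sequenced as 150 base paired ends, per the labels' protocols. The submitters' processing notes name TopHat2 2.1.1, Cufflinks 2.2.1 and build mm9. The deposited values are FPKM per gene, normalized by the authors to the spike-ins, per the labels. Dividing WT values by 2 and Rtcb KO values by 1.33 returned numbers of 6 significant digits for 100% of values of at least 1 (tolerance 0.01 of the last digit), against at most 76.8% for the next best of 252 candidate fractions. The sources used here do not say how the factors arose.

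Genes averaging 1 FPKM or more were tested on log2(FPKM + 1), a scale that understates changes of low genes, with limma 3.58.1 in R 4.3.3 (intensity trend, two-sided). P-values were adjusted by Benjamini-Hochberg over all 12029 genes and called under 0.05. The fit was tested on simulated data. Ratios were compared by exact permutation over libraries. Alternatives were pseudocounts of 0.1 and 5, no filter, a mean of at least 10 FPKM, equal totals, median-ratio rescaling, removal of the genotype factors, no trend, a replicate block and each library left out; removal of the factors from the sums was chosen after seeing the data. Members and lists were chosen with earlier results of these data known. Of each list, the 3 called genes of smallest p were named, and all called genes of a direction with at most 5 calls. Fshr, Foxl2, Lhcgr, Ptx3, Kitl, Gja1 and Txndc5 are named outside this rule as markers, ligand or neighbours of members. Bmp5, Bmpr1a, Smad2, Smurf2, Spry1, Frs2, Fgf10, Gjc1, Panx2, Inha, Nobox, Dazl and Ddx4 were named after their values were seen. Gene overlaps came from GENCODE vM21 (build mm10), used for names only. Tables and plots were made in Python 3.11.15 with pandas 2.3.3, matplotlib 3.10.9, scipy 1.17.1 and numpy 2.4.6. Read-level data, isoforms and proteins were not analysed here.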

Additional observations from a re-analysis of the deposited data

How the results depend on the processing

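Scaling decided most calls. With equal totals the log2 fold changes of Gdf9 (−0.53) and Bmp15 (−0.44) lost their calls, those of Fgf8 (0.23) and Gja4 (0.20) reversed, and Bmpr2 (0.47) passed the threshold. Median-ratio rescaling did the same (−0.44, −0.36, 0.32, 0.28 and 0.55). With the factors removed the values were −0.37 for Gdf9, −0.29 for Bmp15, −0.33 for Bmp6 (also lost), 0.39 for Fgf8, 0.35 for Gja4 and 0.59 for Bmpr2, and the summed FPKM ratio was 1.11 in place of 0.741. These shifts follow from the construction of the scalings. Genes higher and lower were 1118 and 6501 as deposited, 2283 and 3107 with equal totals, 2746 and 2606 with median ratios, and 3097 and 2161 without the factors. Gja4 (−0.23) also lost its call with a pseudocount of 5, no filter, no trend and the replicate block. Leaving out 1 library gave −0.29 to −0.19 for Gja4, −0.24 to −0.13 for Fgf8 and −0.20 to 0.26 for the log2 difference of Bmp15 over Bmp6 between genotypes, and 5 to 6 members called. With a mean of at least 10 FPKM, 33 companion genes were called in place of 59 among fewer genes tested. That filter gave percentile differences between Rtcb KO and WT of −0.128 for Gdf9, −9.25 for Bmp6, 0.853 for Fgf8, −23.7 for Kit, −7.25 for Bmpr1b and 13.0 for Bmpr2, because the set compared with was smaller.

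Deviations of same-numbered libraries from their genotype mean had correlations of 0.141, −0.0988 and 0.0379. Rtcb KO 2 correlated best with WT 3 (0.172). Deviations from a mean of 3 libraries constrain one another, so these values cannot decide whether the numbers pair the samples. The replicate block called 7540 genes in place of 7619 and 5 members in place of 6. Unknown read depth limits what can be said of low genes.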

Other observations

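Oosp1, which encodes a secreted protein of oocytes and was named after its values were seen, had its highest level where Gdf9 and Bmp15 were lowest within a genotype. It was at 3862, 5369 and 3910 FPKM in Rtcb KO and at 3836, 3797 and 5728 FPKM in WT. Zp2, of the zona pellucida, had the same highest and lowest libraries as Gdf9 and Bmp15. It was at 1062, 761 and 876 FPKM in Rtcb KO and 2292, 1681 and 1463 FPKM in WT. The oocyte markers Zp1, Nobox and Ddx4 had these highest and lowest libraries too. How many of all genes share them was not counted.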
